A study of Mus musculus with 6 samples.

Results

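The regions described here are the Grhl3 peaks of embryonic mouse skin that recurred in both embryonic replicates and carried no peak in injured adult epidermis. They were chosen by overlap of the deposited peak lists from chromatin immunoprecipitation followed by sequencing (ChIP-seq). Replicate 1 peaks that shared at least 1 bp with a replicate 2 peak stood for E16.5 skin. These were merged with the peaks of both adult lists, and the autosomal regions of at most 5 kb that held an E16.5 peak and no adult peak were kept. The rule gave 1673 regions, called E16.5-only regions, out of 3695 autosomal E16.5 regions and 13035 merged regions of the whole series. Each of them rested on 1 replicate 1 peak, and 52 further regions on chromosomes X and Y were left out by the rule.

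The embryonic samples were whole back skin at E16.5 in 2 replicates, and the adult samples were epidermis freed with dispase, 1 library from day 4 after depilation and 1 from imiquimod-treated skin. All 4 libraries used the same custom Grhl3 antibody, and the input libraries, 1 embryonic and 1 adult, were not used here. The labels give no strain, sex or genotype for any group and do not say whether the embryonic replicates came from separate animals. Embryonic and adult libraries differed in age, in injury and in tissue, since whole skin also holds dermis, vessels, nerves and pigment cells. Age, injury and tissue therefore cannot be told apart as sources of any difference given here.

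Grhl3 is a DNA-binding transcription factor of the grainyhead-like family. In the mouse embryo it acts in the late differentiation of surface epidermis, when the water barrier of the skin forms, and in closure of the neural tube. Family members bind a short palindromic DNA motif, often at enhancers and promoters of genes for cell adhesion, the cornified envelope and lipid metabolism. Depilation removes hair and injures the epidermis physically, and imiquimod is a Toll-like receptor agonist that causes a psoriasis-like inflammation of mouse skin. A peak is a stretch of genome where the authors' caller found more reads than its background. A missing peak means that the caller reported none, which does not show that the factor was absent.

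The E16.5-only regions made up 45.3% of the autosomal E16.5 regions (exact 95% binomial interval 43.7 to 46.9, which covers counting error only). The other 2022 regions carried an adult peak. Of these, 665 had a depilation peak alone, 609 an imiquimod peak alone and 748 both. The E16.5-only regions were thus the largest of the 4 classes. Their number depends on requiring both replicates. With every replicate 1 peak standing for E16.5, 8228 autosomal regions (72.1%) had no adult peak, and with every replicate 2 peak, 7178 (76.4%). Peaks seen in a single replicate were mostly missing from the adult lists. Of the autosomal replicate 1 peaks without a partner in replicate 2, 84.8% (84.0 to 85.6) lay in neither adult list, and of the replicate 2 peaks without a partner in replicate 1, 95.7% (95.1 to 96.2) did. Each adult list also took regions away on its own. Without the depilation library the E16.5-only regions would number 2340, and without the imiquimod library 2286. Keeping only the upper 50% of peaks by score in every list would give 1067, and 824 of the 1673 regions were among them.

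No test was made between the E16.5-only regions and the E16.5 regions with an adult peak. Each adult condition has 1 library, and regions of 1 library are not replicates of a condition. The values of both sets are given side by side as a description of these lists.

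The E16.5-only regions held few of the best embryonic peak scores. Both sets of regions began near the lowest score of the lists themselves, which was 50.01 in replicate 1 and 50 in replicate 2. Scores are the authors', and compare peaks within their own list only. In replicate 1, the scores of the E16.5-only regions ran from 50.2 to 314, with a median of 86.4 and quartiles of 66.6 and 118. The regions with an adult peak began at 50.5 and had a median of 123 in the same library. In replicate 2, the E16.5-only scores ran from 50.1 to 309.7, with a median of 71.6 and quartiles of 59.3 and 92.3, and the regions with an adult peak began at 50.05 and had a median of 81.7. Both replicates thus placed the E16.5-only regions lower, with wide overlap of the 2 sets. The highest scores of autosomal embryonic regions lay outside the E16.5-only regions. They were 911.37 in replicate 1 and 3100 in replicate 2, both in regions with a depilation peak alone. The value 3100 was also the highest score of the depilation list, and whether it is a ceiling of the score was not tested.

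**Figure D1:**
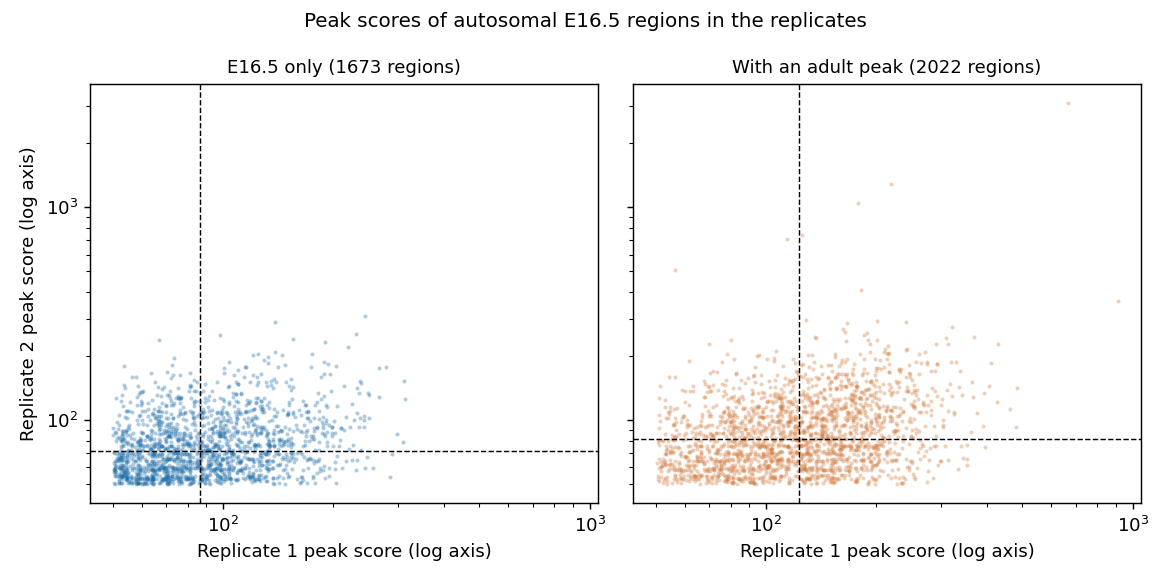
Peak score in E16.5 replicate 1 (x axis) against replicate 2 (y axis), both on log axes, for the 1673 E16.5-only regions (left) and the 2022 E16.5 regions with an adult peak (right). Each point is 1 region and dashed lines are the medians, which lie at 86.4 and 71.6 for E16.5-only regions and at 123 and 81.7 for regions with an adult peak.

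Ranks within each list showed the same order. The score percentile of a peak is its rank among all peaks of its own library, and a region's mean percentile averages its replicate 1 and replicate 2 values. The median percentile in replicate 1 was 65.8 for E16.5-only regions and 82.7 for regions with an adult peak, a difference of -16.9 points. In replicate 2 it was 63.1 for E16.5-only regions and 73.7 for regions with an adult peak, a difference of -10.6 points. The mean percentile had a median of 62.1 in E16.5-only regions, against 71.2 with a depilation peak alone, 74.9 with an imiquimod peak alone and 79.8 with both. Between E16.5-only regions and all regions with an adult peak the medians differed by -13.2 points. The size of this difference depended on the lists and on requiring both replicates. It was -29.4 points without replicate 1 and -39.8 points without replicate 2. There every peak of the remaining replicate counted, with or without a partner, and percentiles came from that list alone. These values thus cover other sets of regions, 9392 without replicate 1 and 11417 without replicate 2. It was -6.51 points when only the upper 50% of peaks by score was kept in every list. Percentiles were still ranks in the full lists there, so they spanned only the upper 50% of the scale. The room for a difference was thus smaller by construction.

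The E16.5-only share was high among weakly scored embryonic regions and low among strongly scored ones. In the lowest decile of mean percentile, 255 of 370 regions were E16.5-only, or 68.9% (63.9 to 73.6). In the highest decile 63 of 370 were, or 17.0% (13.3 to 21.3). The deciles between were not strictly ordered, with 50.9% in decile 4 and 55.9% in decile 5. Ranked by replicate 1 alone, the lowest decile had 68.4% (63.4 to 73.1) and the highest 15.9% (12.4 to 20.1). Ranked by replicate 2 alone, the values were 56.2% (51.0 to 61.3) in the lowest and 26.8% (22.3 to 31.6) in the highest decile. The difference between these spans was not tested.

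**Figure D2:**
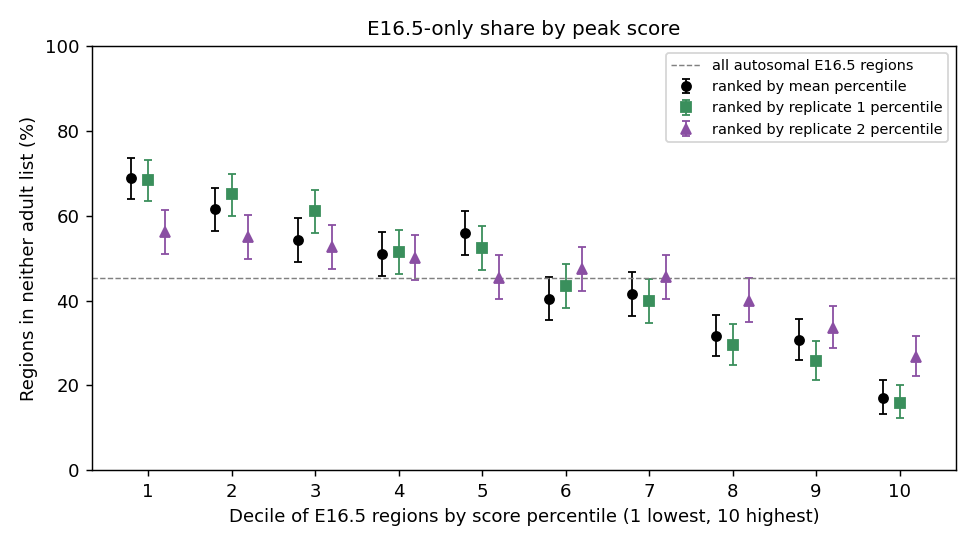
Share of autosomal E16.5 regions in neither adult list (y axis, %) by decile of score percentile (x axis, 1 lowest, 10 highest), ranked by the mean of both replicates (circles), replicate 1 (squares) or replicate 2 (triangles). Bars are exact 95% binomial intervals and the dashed line is the share of all regions, 45.3%. The share in the highest decile is 17.0%, 15.9% and 26.8% in the same order.

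The replicates ranked the E16.5-only regions in loosely related order. Spearman's rho of the 2 scores was 0.24 over the 1673 E16.5-only regions and 0.28 over the 2022 regions with an adult peak, a description over regions that share their libraries. The 2 percentiles of a region differed by a mean of 25.5 points (SD 19.5) for E16.5-only regions and 23.0 points (SD 20.7) with an adult peak. Only 41 E16.5-only regions, or 2.45% (1.76 to 3.31), lay in the best 10% of both lists, against 227, or 11.2% (9.88 to 12.7), of regions with an adult peak. A further 292 (17.5%) lay in the best 10% of 1 list, against 655 (32.4%) with an adult peak. Some of these were strong in a single replicate. In 31 E16.5-only regions (1.85%) the replicate 1 peak was in the best 10% and the replicate 2 peak in the lower 50% of its list, and in 31 the order was the other way round. Among regions with an adult peak these counts were 99 (4.90%) and 20 (0.989%). At the weak end, 221 E16.5-only regions (13.2%, 11.6 to 14.9) lay in the lower 50% of both lists, against 97 (4.80%, 3.91 to 5.82) with an adult peak.

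The E16.5-only regions were narrower than the other embryonic regions. Their replicate 1 peaks ran from 128 to 2392 bp with a median of 552 bp, against a median of 765 bp for replicate 1 peaks in regions with an adult peak, a difference of -213 bp. Their replicate 2 peaks had a median of 333 bp, against 447 bp with an adult peak. The other classes were all wider, with replicate 1 medians of 673 bp with a depilation peak alone, 752 bp with an imiquimod peak alone and 864 bp with both. A wider region is a larger target for an overlap of 1 bp, so width is not independent of how the E16.5-only regions were chosen. When peaks were matched instead by centres within 500 bp, the difference was -203 bp. It was -124 bp with replicate 2 peaks as the regions. It was -376 bp without replicate 2, where every replicate 1 peak counted, with or without a partner.

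A width difference was present in each of 5 score classes. The E16.5 regions were put into 5 classes of nearly equal size by mean percentile. In the weakest class the median replicate 1 width was 462 bp for 482 E16.5-only regions and 590 bp for 257 regions with an adult peak. In the strongest class it was 778 bp for 176 E16.5-only regions and 914 bp for 563 with an adult peak. The difference lay between -170 and -118.5 bp in the 5 classes, and for replicate 2 peaks between -104.5 and -57.5 bp. Score differed within width in turn. Width was also put into 5 classes. Among the narrowest regions, up to 480 bp wide, the E16.5-only share was 82.8% (78.2 to 86.8) in the weakest score class and 52.0% (31.3 to 72.2, 25 regions) in the strongest. Among the widest, from 922 bp, it was 22.2% (10.1 to 39.2, 36 regions) in the weakest and 17.3% (13.4 to 21.9) in the strongest, where the intervals overlap. Over all scores, 77.8% (74.6 to 80.8) of the narrowest and 20.3% (17.5 to 23.4) of the widest regions were E16.5-only.

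**Figure D3:**
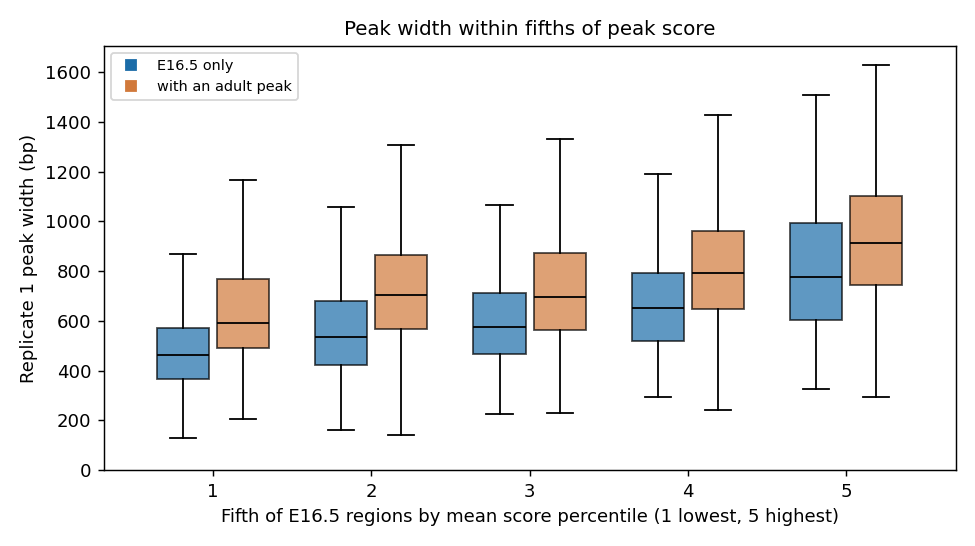
Width of the replicate 1 peak (y axis, bp) in E16.5-only regions (left box of each pair) and in E16.5 regions with an adult peak (right box), by class of mean score percentile (x axis, 1 lowest, 5 highest). Boxes show the quartiles and the median, whiskers reach to the last value within 1.5 times the interquartile range, and values beyond are not drawn. The E16.5-only median is the lower one in each pair, from 462 against 590 bp in the weakest to 778 against 914 bp in the strongest.

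Within E16.5-only regions the replicate peaks lay largely on top of each other. In 1472 of 1673, or 88.0% (86.3 to 89.5), the overlap covered at least 90% of the narrower peak, against 92.9% (91.7 to 94.0) of regions with an adult peak. The median overlap was 322 bp in E16.5-only regions and 436 bp with an adult peak. The replicate 1 peak was the wider one in 93.7% of E16.5-only regions and in 95.9% of the others. Few regions were split into several replicate 2 peaks. Of the E16.5-only regions, 75 (4.48%, 3.54 to 5.59) held 2 replicate 2 peaks and 0 held 3 or more, which allows a share of up to 0.179% (3 counts of the total). With an adult peak, 176 (8.70%, 7.51 to 10.02) held at least 2 and 7 held 3 or more. Few regions rested on a marginal overlap of the replicates, as 12 E16.5-only regions overlapped by under 50 bp. The smallest overlap was 8 bp, at chr10:81007578-81008080 and at chr19:55816870-55817592.

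The 10 E16.5-only regions with the best mean percentile were spread over 7 chromosomes. The first, at chr13:120281006-120283397 (mm9, as are all positions), scored 244.01 in replicate 1 and 309.71 in replicate 2. At 2392 bp it was also the widest E16.5-only region. A depilation peak at percentile 95.8 of its list lay 3.60 kb away, so this region had a strong adult neighbour without sharing a base with it. The second, chr8:81818524-81819205, scored 229.77 in replicate 1 and 254.32 in replicate 2, with its nearest adult peak, an imiquimod peak, at 201 kb. The third, chr4:8618355-8619469, scored 277.92 in replicate 1 and 178.16 in replicate 2. It lay 124 bp from a depilation peak and 162 bp from an imiquimod peak, so it belongs to the class by a narrow margin.

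The remaining 7 differed as much in their surroundings. At chr8:73904758-73906189, with scores of 266.62 in replicate 1 and 176.27 in replicate 2, a depilation peak lay 4.67 kb away. At chr4:91037751-91039023 the replicate 1 score was 311.33 and the replicate 2 score 152.57, the replicate 2 signal was called as 2 peaks, and a weak imiquimod peak (percentile 7.25) lay 5.25 kb away. The other 5 lay 64.0 kb or more from every adult peak. Nearly equal scores came from chr9:56008248-56008945, with 219.79 in replicate 1 and 220.68 in replicate 2, and its nearest adult peak was 257 kb away. Among the 10, the narrowest was chr13:4560473-4560807, at 335 bp, with 189.4 in replicate 1 and 233.6 in replicate 2, and 247 kb to the nearest adult peak. The score at chr17:36621438-36621957 was 202.98 in replicate 1 and 179.71 in replicate 2, and the nearest adult peak was 213 kb away. Those at chr19:4214336-4215516 (236.39 in replicate 1 and 153.06 in replicate 2) and chr12:88019445-88020382 (237.35 in replicate 1 and 148.77 in replicate 2) were 67.3 and 64.0 kb from an adult peak. A high score here is a rank by the authors' caller, and input signal was not used here.

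The best 10% of E16.5-only regions, 168 regions with a mean percentile of 85.5 or more, held 63 that lay over 100 kb from any adult peak. The farthest of these 168 was chr7:147323411-147323748, with scores of 227.3 in replicate 1 and 99.91 in replicate 2, at 555 kb from a depilation peak and 748 kb from an imiquimod peak. Next came chr10:5958938-5959884, scoring 141.28 in replicate 1 and 178.73 in replicate 2, at 456 kb, and chr5:21290613-21291180, scoring 138.7 and 210.03 in the same order, at 424 kb. The last of the 5 were chr10:50312353-50312866, with 184.68 in replicate 1 and 126.11 in replicate 2, at 382 kb, and chr7:56044330-56044725, with 145.38 and 112.08, at 368 kb. In each of the 5, both replicates were at percentile 83.7 or higher of their list.

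The E16.5-only regions lay about as far from adult peaks as the other embryonic regions lay from adult peaks outside themselves. The gap to the nearest adult peak had a median of 61301 bp (quartiles 24852 and 125915) for E16.5-only regions. For regions with an adult peak, the gap to the nearest one outside the region had a median of 64806.5 bp. An adult peak lay within 10 kb of 209 E16.5-only regions, or 12.5% (10.9 to 14.2), and of 11.9% (10.5 to 13.4) of the others. It lay within 100 kb of 66.5% (64.2 to 68.8) and 65.7% (63.6 to 67.8) in the same order, so the 2 curves nearly coincide. The 12.5% within 10 kb became 5.81% with the upper 50% of peaks by score and 7.78% with peaks up to 1 kb apart merged. It became 7.65% without the depilation library and 7.26% without the imiquimod library. Merging takes out regions close to an adult peak, and the other settings leave fewer adult peaks to be near. Of the E16.5-only regions, 560 were over 100 kb and 23 over 500 kb from every adult peak. Taken by list, the median gap of E16.5-only regions was 121006 bp to a depilation peak and 97418 bp to an imiquimod peak. The imiquimod list is the longer one, with 7974 peaks against 4820.

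**Figure D4:**
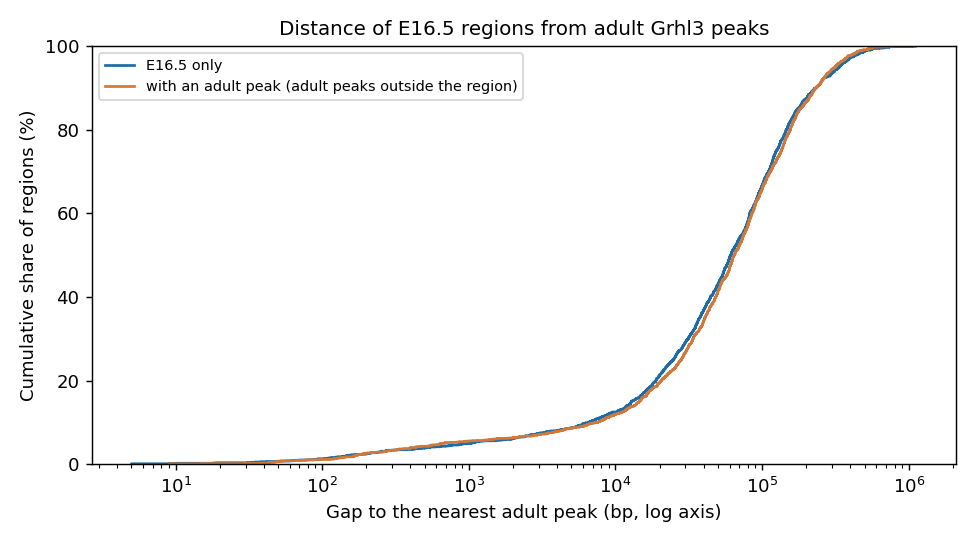
Cumulative share of regions (y axis, %) by gap to the nearest adult peak (x axis, bp, log axis), for the E16.5-only regions and for E16.5 regions with an adult peak, where adult peaks within the region are not counted. Within 10 kb the curves have reached 12.5% and 11.9%, and within 100 kb 66.5% and 65.7%.

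A small group of E16.5-only regions lay beside an adult peak. In 65 regions, or 3.89% (3.01 to 4.93), the gap was at most 500 bp, in 18 it was over 500 and up to 1000 bp, and in 62 over 1 and up to 5 kb. The short gaps were packed towards the region, with 22 of up to 100 bp, 19 of over 100 and up to 200 bp, 15 of over 200 and up to 300 bp, 3 of over 300 and up to 400 bp and 6 of over 400 and up to 500 bp. Regions with an adult peak had another such peak outside within 500 bp in 4.30% (3.46 to 5.28). Of the 83 E16.5-only regions within 1 kb of an adult peak, the nearest was a depilation peak in 47 and an imiquimod peak in 36, and 26 had a peak of both lists within 1 kb. These adult neighbours covered nearly the whole score range of their lists. The percentiles of the 59 depilation peaks ran from 0.187 to 98.3 with a median of 63.1, and those of the 50 imiquimod peaks from 0.0815 to 96.5 with a median of 72.6. The imiquimod neighbours held a median of 38 tags, the authors' count of reads in a peak, at a median fold enrichment of 6.305 over the caller's background, against 29 tags and 6.65 for all peaks of that list. In 11 E16.5-only regions (0.658%, 0.329 to 1.17), all within 500 bp of an adult peak, the replicate 2 peak reached beyond the replicate 1 peak and itself overlapped an adult peak.

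Regions just inside and just outside the rule overlapped in score. The E16.5-only regions nearest to an adult peak were chr19:6399305-6399821 and chr9:110518835-110519201, each 5 bp from a depilation peak, chr6:87931548-87931976, 9 bp from an imiquimod peak, chr10:26094681-26095141, 10 bp from a depilation peak, and chr8:87322932-87323462, 18 bp from an imiquimod peak. Their mean percentiles ran from 24.9 to 75.3. In the last of these, the replicate 2 peak scored 237.09 and met the replicate 1 peak, which scored 67, over 11 bp. Just outside the rule were regions with the smallest overlap with an adult peak. These were chr11:80965228-80965688 with 12 bp, chr7:69609078-69609440 with 28 bp, chr12:110271784-110272510 with 44 bp, chr9:54996644-54997123 with 56 bp and chr9:108092575-108092926 with 57 bp. All 5 met an imiquimod peak alone, and their mean percentiles ran from 28.6 to 62.2. The narrowest E16.5-only region, chr2:47805107-47805234 at 128 bp, scored 84.06 in replicate 1 and 54.87 in replicate 2 and lay 26.5 kb from an imiquimod peak.

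The E16.5-only regions lay on all 19 autosomes, in step with the embryonic regions as a whole. Chromosome 2 held the most, 131, followed by chromosomes 5 and 11 with 122 each and chromosome 4 with 121, and chromosome 14 the fewest, 51. The E16.5-only share of a chromosome's E16.5 regions ran from 36.9% (29.4 to 44.9, 59 of 160) on chromosome 13 to 52.4% (43.3 to 61.3, 66 of 126) on chromosome 16. In 18 of 19 autosomes the 95% interval held the overall share of 45.3%, and chromosome 13 was the exception. Intervals at 95% miss at times through counting error, and chromosome 13 was not tested against the others. Over the 19 autosomes, the E16.5-only share and the number of adult peaks per E16.5 region had a Spearman's rho of 0.31, given as a description. That number ran from 2.59 on chromosome 11 to 4.88 on chromosome 14.

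**Figure D5:**
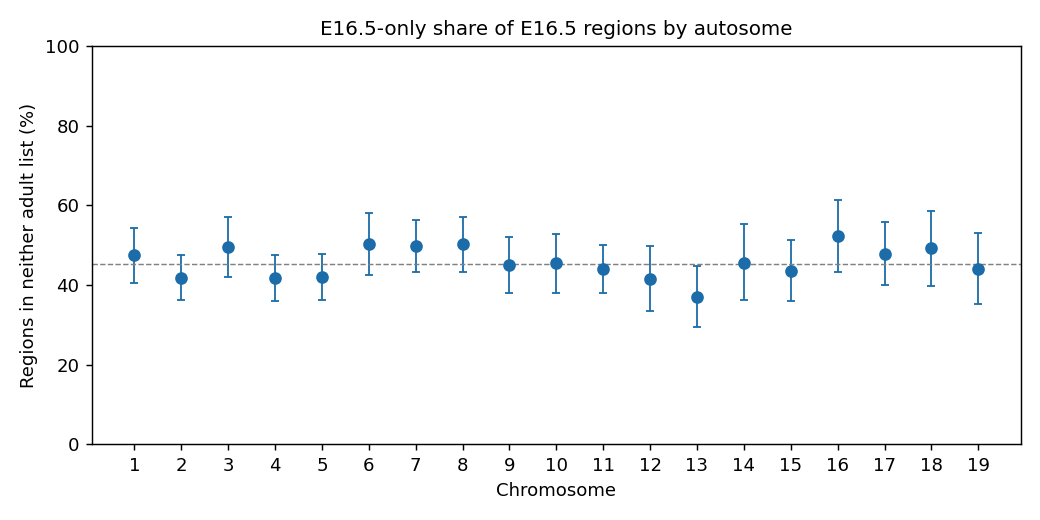
Share of E16.5 regions in neither adult list (y axis, %) on each of the 19 autosomes (x axis), with exact 95% binomial intervals. The dashed line is the share over all autosomes, 45.3%, and the values run from 36.9% on chromosome 13 to 52.4% on chromosome 16.

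The E16.5-only regions were spread over 940 windows of 1 Mb. Of these windows, 528 held a single E16.5-only region and 412 held at least 2. There were 32 windows with 5 or more, which together held 183 regions. The 3 richest windows held 9 each. On chromosome 8, between 73 and 74 Mb, 9 of 10 E16.5 regions were E16.5-only, although the depilation list had 4 peaks and the imiquimod list 3 in that window. On chromosome 10, 9 of 16 E16.5 regions between 79 and 80 Mb and 9 of 19 between 80 and 81 Mb were E16.5-only, in windows where the depilation list had 8 and 15 peaks and the imiquimod list 12 and 10.

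Some windows held E16.5-only regions and no other E16.5 region. This was the case in 95 of the 412 windows with at least 2 E16.5-only regions, and in 31 windows with at least 3. Windows that held only regions with an adult peak were not counted, so an excess was not tested. The fullest windows of E16.5-only regions alone, named after their values were seen, held 6 of 6 each. They lay on chromosome 10 between 126 and 127 Mb and on chromosome 14 between 55 and 56 Mb. In the chromosome 10 window the depilation list had 1 peak and the imiquimod list 5, and in the chromosome 14 window they had 2 and 0. Windows without any adult peak held 37 E16.5-only regions in all. Apart from window edges, no region with an adult peak can lie in such a window. The nearest other E16.5 region of an E16.5-only region was itself E16.5-only in 48.2% (45.8 to 50.7), and that of a region with an adult peak was E16.5-only in 42.5% (40.3 to 44.7). With neighbours within 50 kb these shares were 53.1% (48.5 to 57.6, 488 regions) and 43.2% (39.0 to 47.5, 537 regions) in the same order. Neighbouring regions are not independent, and the difference was not tested. Another E16.5 region lay within 10 kb of 10.1% (8.70 to 11.6) of E16.5-only regions and of 8.46% (7.28 to 9.76) of those with an adult peak.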

How the data were processed

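Per the submitters' processing notes the build is mm9, and Bowtie 0.12.7 and bedtools 2.11.2 are named among the tools. No source used here gives the caller's settings, its use of input or the read totals, so depth is unknown. The deposited BED lists hold a score per peak whose meaning is not stated. Per the file headers, the imiquimod list gives the authors' count of tags, a fold enrichment (a ratio over background) and a false discovery rate in percent, and its score column, which lost its header, was read as the same kind of score. Positions are 1-based, with BED starts raised by 1. Percentiles are average ranks within all peaks of a library, and the best peak counted where a region held several.

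The selection rule and the rule for named regions (the 10 best, 5 farthest from and 5 nearest to adult peaks, 5 just outside, 3 richest windows, widest, narrowest, and any with 3 or more replicate 2 peaks) were chosen with earlier results of these data known. The regions with the smallest replicate overlap were added after their values were seen. Intervals are exact (Clopper-Pearson, 95%). Overlap and merging were tested on simulated data and gave the planted counts, and bedtools 2.31.1 also gave 1673 regions. Python 3.11.15 was used with pandas 2.3.3, numpy 2.4.6 and scipy 1.17.1. Region sequences and nearby genes were not analysed here, since the annotation used here is of another build.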

Additional observations from a re-analysis of the deposited data

How the results depend on the processing

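Of 65 recomputed values, 44 stayed within a set margin or within 1.5 times the count. The margin of a share was its binomial interval. That of the percentile and width differences was the SD of 2 values, 1 per replicate, 4.46 points and 70.0 bp. The replicate lists also differed in median peak width, 445 bp in replicate 1 and 232 bp in replicate 2. The SD is thus a yardstick and not a sampling error. Lifting the width limit could change nothing, since 0 E16.5 regions were wider than it. Only the percentile and width differences could turn in direction, and 0 of them did. The limits are the unknown depth, 1 library per adult condition and replicate lists that share a minority of peaks. Leaving out 1 library at a time gave 2286 to 8228 E16.5-only regions, shares of 61.8% to 76.4%, percentile differences (E16.5-only minus with an adult peak) of -39.8 to -10.4 points, width differences of -376 to -161 bp, and 7.26% to 12.5% within 10 kb of an adult peak. Fewer conditions on a region, by construction, leave more regions. With the better scoring 50% of each list, the number was 1067, the share 47.8%, the percentile difference -6.51 points and the share within 10 kb 5.81%, and 824 of the 1673 regions were among them. With regions taken from replicate 2 peaks, the share was 48.6%, the width difference -124 bp and the share within 10 kb 18.6%, and 1662 of the 1673 were found again. With peaks up to 1 kb apart merged, the share was 43.6% and the share within 10 kb 7.78%. With an imiquimod false discovery rate of at most 5%, the share was 50.1%. Merging removes regions near an adult peak by construction. Dropping an adult library or imiquimod peaks can only add regions without an adult peak. It also leaves fewer adult peaks that could lie within 10 kb. Keeping the better scoring 50% leaves fewer adult peaks too. As percentiles remain ranks in the full lists, it also confines them to the upper 50% of the scale. Leaving out an embryonic replicate admits every peak of the other one, so the differences there describe another set of regions. For the remaining moves the cause was not tested. Joining the peaks of both replicates into the region, an alternative chosen after seeing the data, left 1654 regions. No paired analysis was made, since the labels match no embryonic library to an adult one. The adult libraries have no replicates, so no test between conditions was made.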
